A study of Mus musculus with 6 samples.

Results

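The olfactory receptor genes of mouse chromosome 7 were taken as all protein-coding genes of this chromosome in GENCODE vM21 (mm10) whose symbol starts with Olfr. This rule gave 244 genes out of 2023 coding genes on the chromosome, and it used no measured value. The 244 gene records carry 243 symbols, because Olfr290 stands for 2 overlapping records. For each gene, the DPPA4 peaks with at least 1 base within 10 kb of the gene body were counted in each of 2 peak lists.

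Olfactory receptors are G protein-coupled receptors of the nasal sensory neurons, and each mature neuron expresses a single receptor allele out of the whole repertoire. The genes lie in tandem arrays with small promoters, and in neurons that do not express them they are packed in heterochromatin marked by H3K9 methylation. The array around the beta-globin genes on chromosome 7 holds the class I, or fish-like, receptors. Olfactory receptors are not known as genes of pluripotent cells, so the values below describe DPPA4 binding next to genes of another lineage, and expression was not measured in these files.

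DPPA4 is a chromatin-binding protein of pluripotent cells and early embryos, and it was profiled by CUT&RUN, in which a nuclease is tethered to an antibody and releases the bound DNA. All cells came from a mouse embryonic stem cell (ESC) line of a BL6/129 hybrid background, whose parental line is given in the methods as KH2 (C57BL/6J x 129S1 F1), grown with FBS and LIF, in which EHMT2, an H3K9 methyltransferase, carried a dTAG degradation tag with an mCherry reporter, and a MERVL promoter drove GFP. Every sample was treated with dTAG for 72 h, so both groups share the EHMT2 degradation treatment, and no untreated sample was analysed here. The reporter lines were grown from picked colonies, and GFP marks cells in which the MERVL promoter is active. The GFP-negative group, here called ESCs, and the GFP-positive group, 2-cell-like cells or 2CLCs, had 2 DPPA4 libraries each, and 1 GFP-negative and 1 bulk IgG library completed the 6 samples.

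The deposited peaks were 1 list per group, made from both of its libraries (the ESC list and the 2CLC list), so there was no spread between replicates and no test was run. Shares of genes are given with 95% Wilson intervals and differences with Newcombe intervals. These cover counting error only, and neighbouring genes that share a peak are not independent. The ESC list held 83602 peaks and the 2CLC list 54642, of which 5418 and 4134 lay on chromosome 7. The lists hold no read counts, so the depth reached by each library is unknown, although the methods give 1 read number for all samples. A difference between lists can come from more cells with binding or from more binding per cell, which cannot be told apart. The files hold no marker expression by which to check the labelled cell types. At the Zscan4 genes, a 2-cell reference family on the same chromosome, 0 of 5 coding genes had an ESC peak and 5 of 5 had a 2CLC peak. The Obox genes, which the authors also name as activated with the zygotic genome, were mixed. Obox1 had 2 ESC and 11 2CLC peaks within 10 kb, Obox3 2 and 6, Obox6 1 and 6 and Obox5 1 and 1. Obox2 and Obox8 had 0 and 1, and Obox7 0 and 0. These peaks do not check the cell types.

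The DNA under 6 of the peaks is shown first, as examples of repeated and of single-copy sequence. Each runs from 100 bp before to 100 bp after the summit of the strongest ESC peak of the named receptor, read from the GRCm38.p6 reference, and each summit lies in an intergenic stretch unless stated otherwise. In the first group of 3, from the strongest peaks near Olfr478, Olfr470 and Olfr585, capitals mark a 16-bp stretch that was found in 14 of the 52 DPPA4 regions near receptor genes.
Olfr478, chr7:108027478-108027678, minus strand: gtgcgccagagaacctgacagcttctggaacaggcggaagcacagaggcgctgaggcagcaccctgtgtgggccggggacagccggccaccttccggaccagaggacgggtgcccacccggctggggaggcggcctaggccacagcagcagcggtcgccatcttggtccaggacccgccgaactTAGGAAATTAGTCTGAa
Olfr470, chr7:107854374-107854574, plus strand: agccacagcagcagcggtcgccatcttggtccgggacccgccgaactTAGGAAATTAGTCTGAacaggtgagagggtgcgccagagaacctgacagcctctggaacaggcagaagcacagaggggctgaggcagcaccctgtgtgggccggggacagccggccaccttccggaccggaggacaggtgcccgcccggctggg
Olfr585, chr7:103105683-103105883, plus strand: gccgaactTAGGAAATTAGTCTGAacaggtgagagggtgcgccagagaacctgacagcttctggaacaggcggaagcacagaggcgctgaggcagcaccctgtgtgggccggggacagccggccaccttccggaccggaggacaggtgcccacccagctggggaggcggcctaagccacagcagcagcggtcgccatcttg
In the second group of 3, capitals mark CpG dinucleotides. The peak near Olfr631 was the strongest of those near receptors in both lists, the one near Olfr557 lies over the promoter of Trim68, and the one at Olfr658 covers the start of a receptor gene.
Olfr631, chr7:103921721-103921921, plus strand: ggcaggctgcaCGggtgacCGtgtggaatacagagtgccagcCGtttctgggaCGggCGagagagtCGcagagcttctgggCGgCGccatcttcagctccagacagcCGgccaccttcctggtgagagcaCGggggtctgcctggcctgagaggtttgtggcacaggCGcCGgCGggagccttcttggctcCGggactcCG
Olfr557, chr7:102687217-102687417, plus strand: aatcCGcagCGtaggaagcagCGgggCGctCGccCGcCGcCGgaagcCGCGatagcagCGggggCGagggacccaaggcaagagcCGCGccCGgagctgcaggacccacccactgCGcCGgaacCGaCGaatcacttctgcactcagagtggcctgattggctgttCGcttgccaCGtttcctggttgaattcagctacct
Olfr658, chr7:104647162-104647362, plus strand: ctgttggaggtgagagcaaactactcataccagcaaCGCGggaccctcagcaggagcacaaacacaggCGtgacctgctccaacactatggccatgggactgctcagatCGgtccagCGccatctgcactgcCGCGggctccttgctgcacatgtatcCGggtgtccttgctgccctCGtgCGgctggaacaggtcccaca
In these windows the Olfr631 sequence had 15 CpGs and 67.2% GC, and the Olfr478, Olfr470 and Olfr585 sequences had 13, 12 and 11 CpGs. The Olfr557 sequence had 21 CpGs and the Olfr658 sequence 10. The copy number, taken as the median count in the genome of the 31-mers in the window, was 814 at Olfr631, 103 at Olfr478, 2905 at Olfr470 and 2581 at Olfr585. It was 1 at Olfr557 and Olfr658. Sequence with a copy number of 1 is called single-copy here, although some of its 31-mers can occur elsewhere.

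Most receptor genes had no DPPA4 peak nearby in either list. In the ESC list 45 of 244 genes had a peak within 10 kb (18.4%, 14.1 to 23.8), where 73.3% of all coding genes of the chromosome did. In the 2CLC list 38 genes had one (15.6%, 11.6 to 20.7), against 71% of all coding genes. Among the 1779 other coding genes the counts were 1438 (80.8%, 78.9 to 82.6) and 1399 (78.6%, 76.7 to 80.5). The receptor share minus that of the other genes was -62.4 percentage points (-67.1 to -56.7) for the ESC list and -63.1 points (-67.5 to -57.6) for the 2CLC list. The difference kept its sign in every setting tried. With peaks on single-copy sequence alone, 21 and 13 receptor genes had a peak (8.61% and 5.33%), against 77.5% and 73.4% of the other coding genes. The difference shrank to -30.3 and -30.2 points with a 50 kb window. It was -42.3 and -39.0 points with the 10000 strongest peaks of each list. There 3.28% of the receptors had a peak in each list, against 45.5% and 42.3% of the other coding genes.

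**Figure D1:**
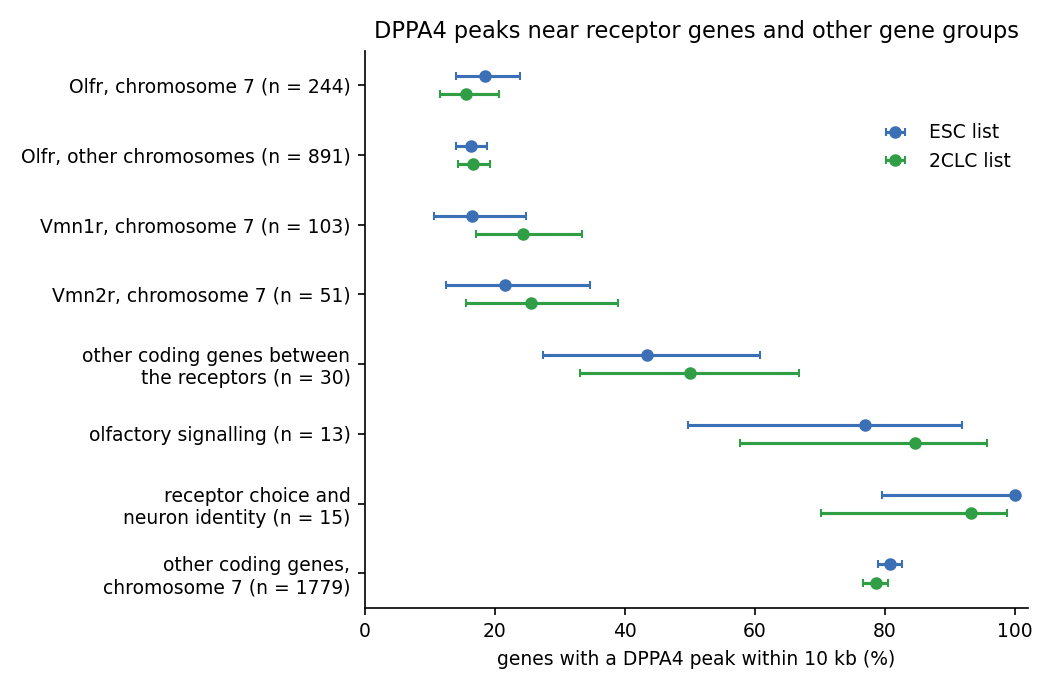
Share of genes with a DPPA4 peak within 10 kb (%, horizontal axis) for 8 gene groups, with blue points for the ESC list, green points for the 2CLC list and bars for the 95% Wilson interval. The chromosome 7 receptors sit at 18.4% and 15.6%, beside the receptors of other chromosomes at 16.3% and 16.6%, and the other coding genes of chromosome 7 at 80.8% and 78.6%.

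The few peaks were spread thinly over the receptors. In the ESC list 35 genes had 1 peak, 9 had 2 and 1 had 3, and in the 2CLC list 31 had 1 and 7 had 2. Because neighbours share peaks, these counts rest on 42 and 36 distinct peaks. The windows around the receptors cover 4.31 Mb, which gives 9.75 and 8.35 peaks per Mb, where the windows around the other coding genes held 57.5 and 41.4. Peaks covered 0.672% and 0.752% of the receptor windows and 5.20% and 4.63% of the others. The median receptor gene lay 35.2 kb from the nearest ESC peak (quartiles 13.8 and 78.2 kb) and 33.7 kb from the nearest 2CLC peak (quartiles 14.96 and 72.3 kb), whereas the median for the other coding genes was 0 kb in both lists. The limit of 10 kb fell between Olfr549 at 9428 bp and Olfr646 at 10104 bp in the ESC list, and between Olfr2 at 9980 bp and Olfr646 at 10010 bp in the 2CLC list.

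**Figure D2:**
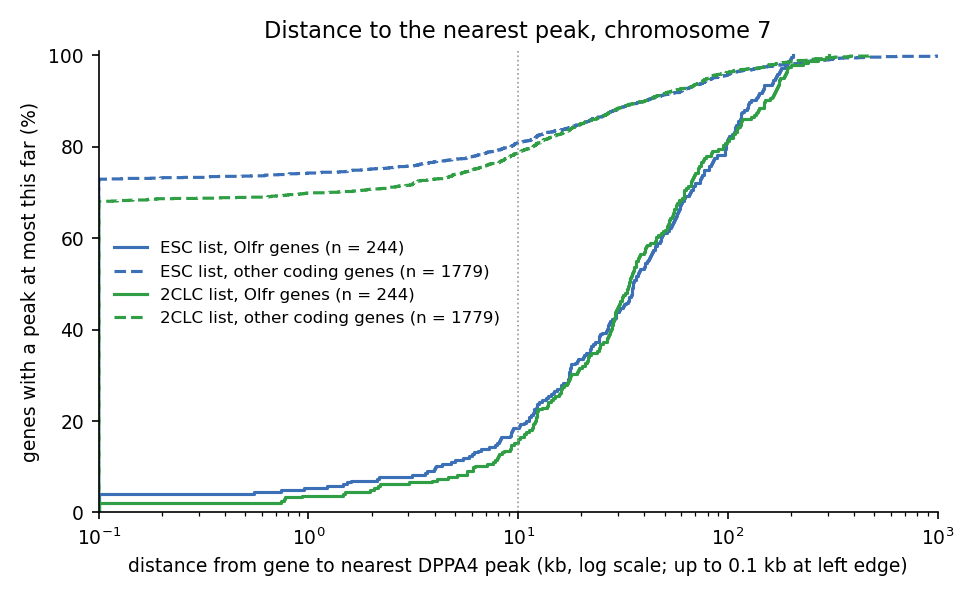
Cumulative share of genes (%, vertical axis) by distance from the gene to the nearest DPPA4 peak (kb, log axis, distances up to 0.1 kb drawn at the left edge), with solid lines for the 244 receptors, dashed lines for the 1779 other coding genes, and a dotted line at 10 kb. The 2 lists run together for the receptors, with medians of 35.2 and 33.7 kb, and both lie below the other genes until beyond 100 kb.

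Between the lists, 29 receptor genes had a peak in both, 16 had an ESC peak alone, 9 had a 2CLC peak alone and 190 (77.9%) had neither. On the whole chromosome 67.6% of coding genes had peaks of both lists, 5.68% an ESC peak alone and 3.41% a 2CLC peak alone. Overlapping peaks of the lists were then joined into regions, which gave 52 regions near receptors. Of these, 25 were common to both lists (48.1%, 35.1 to 61.3), 17 were ESC-specific (32.7%, 21.5 to 46.2) and 10 were 2CLC-specific (19.2%, 10.8 to 31.9). Among the 6629 other regions of the chromosome the shares were 38.2%, 40.1% and 21.7%, each inside the interval of the receptor regions. The share of 2CLC-specific regions ran from 13% with peaks of a −log10 q of at least 5 to 31.9% with a window of 50 kb.

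The receptors form 8 clusters when genes up to 500 kb apart are joined, and apart from the fourth, which has 2 genes, between 0% and 26.3% of the genes of a cluster had a peak in the ESC list, and the same range held for the 2CLC list. In the first cluster, of 8 genes from Olfr1344 to Olfr1350, those 2 end genes had a weak ESC peak each (−log10 q of 2.53 and 1.45) and no gene had a 2CLC peak. The 3 records of the second cluster, Olfr291 and the 2 of Olfr290, had no peak in either list. The third, of 15 genes from Olfr310 to Olfr292, had ESC peaks at 3 genes, namely Olfr307, Olfr297 and Olfr294, and 2CLC peaks at the last 2 of these. The fourth consists of Olfr520 and Olfr521, and both genes had a 2CLC peak and Olfr521 also an ESC one.

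The fifth cluster, from Olfr543 to Olfr692, is the class I array with 129 genes, and 22 of them had an ESC and 20 a 2CLC peak. The sixth, of 26 genes from Olfr693 to Olfr716, had 3 and 2 such genes, which were Olfr697, Olfr698 and Olfr711 in the ESC list and Olfr711 and Olfr2 in the other. Olfr2, also called I7, is a well-studied receptor for aldehydes, and its peak is the one it shares with Olfr711. The seventh, of 42 genes from Olfr467 to Olfr519, had 9 and 7, and the eighth, of 19 genes from Olfr522 to Olfr541, had 5 and 5.

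Long runs of receptors had no peak within 10 kb in either list. From Olfr610 to Olfr65, 24 receptors in a row had no peak within 10 kb, and the 403 kb they span (chr7:103505375-103908650, mm10) held 0 peaks of either list. This span also contains the beta-globin genes Hbb-bt, Hbb-bs, Hbb-bh2, Hbb-bh1 and Hbb-y, none of which had a peak within 10 kb. A second run of 24 receptors, from Olfr659 to Olfr690, spans 667 kb and held 3 peaks of the ESC list and 22 of the 2CLC list, all of them more than 10 kb from the receptors. That run surrounds Usp17le, Usp17lb and Usp17la. Other runs were 15 receptors from Olfr566 to Olfr584, 13 from Olfr699 to Olfr6, 10 from Olfr597 to Olfr608 and 10 from Olfr485 to Olfr495. In that order, their spans held 0, 0, 0 and 2 ESC peaks and 1, 0, 3 and 1 2CLC peaks, all more than 10 kb from a receptor.

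The Usp17l genes encode deubiquitinases of a family that is expressed at the 2-cell stage, and on chromosome 7 they lie inside the class I array. All 6 of them, including the pseudogene Usp17le-ps, had a 2CLC peak within 10 kb and 2 had an ESC peak. In the 2CLC list Usp17le had 8 peaks, Usp17ld 6, Usp17lb and Usp17la 4 each, Usp17lc 3 and Usp17le-ps 1. Reads that fit several places equally well were put at 1 of them by the authors. How far this shapes the split among the Usp17l genes, or among the Zscan4 genes above, was not tested. The ESC peaks were 1 at Usp17lb and 1 at Usp17le-ps. Together the Usp17l windows held 26 peaks of the 2CLC list and 2 of the ESC list (185 and 14.2 per Mb).

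The receptors beside the Usp17l genes had few of these peaks. Within 200 kb of a Usp17l gene lay 53 receptors, all in the class I array, with Olfr583 at 197477 bp just inside this limit and Olfr678 at 201807 bp just outside. Of the 53, 6 had an ESC peak (11.3%, 5.29 to 22.6) and 9 a 2CLC peak (17.0%, 9.20 to 29.2). Of the 191 receptors farther away, 39 (20.4%, 15.3 to 26.7) and 29 (15.2%, 10.8 to 20.96) had one. The differences of near minus far were -9.10 points (-17.8 to 3.26) in the ESC list and 1.80 points (-7.89 to 14.8) in the 2CLC list, and both intervals include 0. Within the class I array alone, 16 and 11 of the 76 farther receptors had a peak (21.1% and 14.5%). When near was set at 500 kb the differences became -13.8 (-22.6 to -3.98) and -7.27 (-15.8 to 2.22), so that the first interval no longer included 0 and the second changed sign, and at 100 kb they were -4.85 and 8.50.

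By gene, the near receptors with peaks were Olfr585, Olfr592, Olfr593, Olfr609, Olfr657 and Olfr658 in both lists, and Olfr589, Olfr591 and Olfr596 in the 2CLC list. The other 44 had none in either list. They were Olfr583, Olfr584, Olfr586, Olfr588-ps1, Olfr594, the 10 from Olfr597 to Olfr608, 10 of the run that starts at Olfr610, the 6 from Olfr651 to Olfr656, and 13 of the run that starts at Olfr659. Among the far receptors 23 had peaks of both lists, 16 of the ESC list alone and 6 of the 2CLC list alone, and among the near receptors these counts were 6, 0 and 3. Regions near these 2 sets of receptors were 2CLC-specific in 3 of 9 and 7 of 43 cases (33.3%, 12.1 to 64.6, and 16.3%, 8.12 to 29.97), with intervals that overlap.

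The class I array and its 10 kb flanks held 35 peaks of the ESC list and 68 of the 2CLC list. Within 10 kb of a receptor lay 20 and 19 of these, and within 10 kb of a Usp17l gene 2 and 26, with 1 peak of each list near both. A further 8 and 9 lay near other coding genes alone and 6 and 15 near no coding gene. Receptors were sparse next to the Usp17l genes, with 1 within 10 kb, 3 more within 20 kb and 10 more within 50 kb. Beyond 10 kb from the Usp17l genes the 2CLC peaks numbered 2 from 10 to 20 kb, 9 from 20 to 50 kb, 2 from 50 to 100 kb and 8 from 100 to 200 kb, and the ESC peaks 0, 4, 1 and 4.

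**Figure D3:**
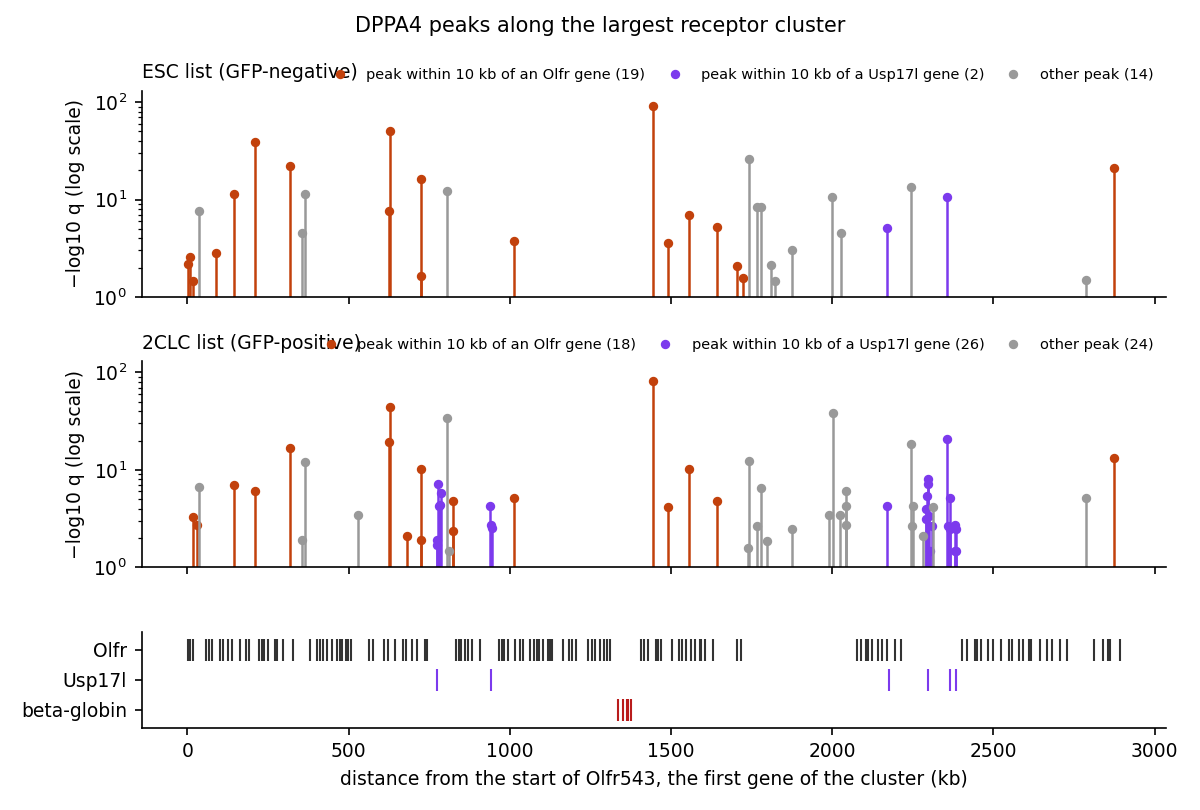
DPPA4 peaks along the class I array, drawn by distance from the start of Olfr543 (kb, horizontal axis) and by −log10 q (log vertical axis) for the ESC list (top) and the 2CLC list (middle), with gene positions as ticks (bottom). Purple marks the 2 and 26 peaks within 10 kb of a Usp17l gene (a peak that is also near a receptor is drawn in purple), orange the remaining peaks near receptors and grey all others, and no peak lies over the stretch around the beta-globin genes.

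**Figure D4:**
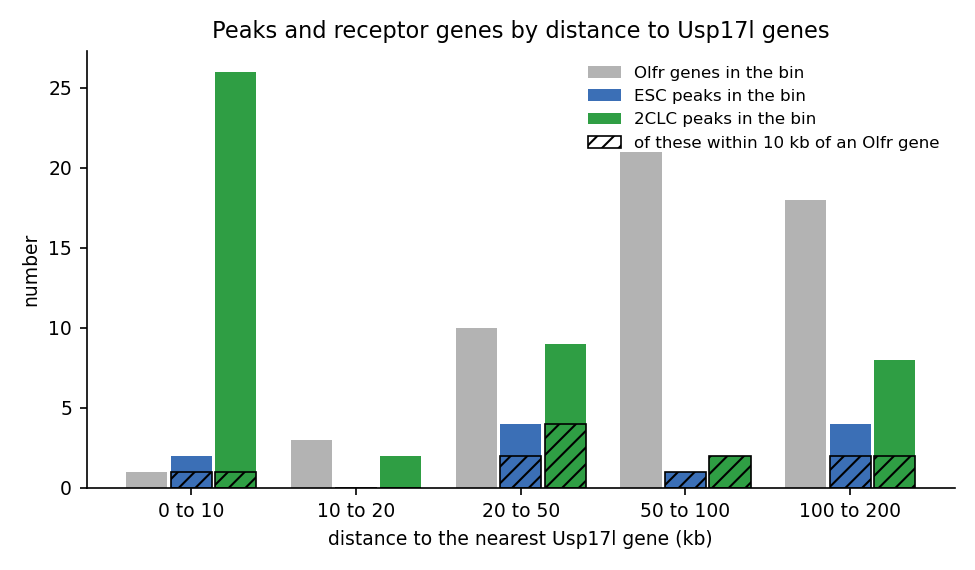
Number of receptor genes (grey), ESC peaks (blue) and 2CLC peaks (green) of the class I array by distance to the nearest Usp17l gene (kb, horizontal axis), with hatching over the peaks that also lie within 10 kb of a receptor. The nearest 10 kb held 26 peaks of the 2CLC list but a single receptor, and the 2 farthest bins held 21 and 18 receptors.

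Olfr658 is the receptor closest to a Usp17l gene, at 4946 bp from Usp17le-ps, and the only receptor whose annotated 5′ end lay under a peak in either list. Its ESC peak (chr7:104646760-104647574, mm10) had a fold enrichment of 4.83 and a −log10 q of 5.07, and its 2CLC peak a fold enrichment of 5.05 and a −log10 q of 4.30. The summits lay 43 and 151 bp inside the gene from its start, over single-copy sequence that is not soft-masked in the reference, the mark for repeats. Its neighbour Olfr657, at 14770 bp from Usp17le-ps, counts as having a peak through the same 2 peaks. Peaks over the annotated 5′ end were counted for the receptors alone, and whether that end is the true transcription start was not checked. Within 10 kb of that end, 15.2% and 11.5% of the receptors had a peak in the ESC and 2CLC list. For the other coding genes of chromosome 7 these shares were 75.3% and 70.5%.

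Olfr596 and Olfr589 had the 2CLC-specific regions of this neighbourhood. Olfr596 had 2 peaks upstream of its start, with −log10 q of 4.82 and 2.36 and fold enrichments of 4.75 and 3.66, and its nearest ESC peak lay 22176 bp away. Olfr589 had 1 peak 2197 bp away with a −log10 q of 2.07, which Olfr591 shares. The stronger peak near Olfr585, a receptor 150987 bp from Usp17ld, had a −log10 q of 51.0 in the ESC and 44.1 in the 2CLC list.

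The strongest peaks near receptors were common to the lists. The peak upstream of Olfr631 (chr7:103920978-103922413 in the ESC list) had a fold enrichment of 29.1 and a −log10 q of 91.9, and in the 2CLC list 26.4 and 82.1. It lies 6411 bp from the gene, just past the end of the peak-free run around beta-globin. The peak near Olfr478 had a −log10 q of 67.1 and 62.4, the one near Olfr470 57.4 and 34.0, and the one near Olfr585 51.0 and 44.1, in the ESC and 2CLC list.

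Below these came Olfr294 with a −log10 q of 24.5 and 16.4, Olfr564 with 22.2 and 16.7, Olfr691 with 20.9 and 13.4 and Olfr46 with 10.6 and 14.7. Olfr46 is the one among these whose gene body holds the peak, in an exon. A second peak near Olfr585 had a −log10 q of 7.62 in the ESC and 19.3 in the 2CLC list. Of the 25 common regions, 16 had the higher −log10 q in the ESC list and 9 in the 2CLC list, and since −log10 q depends on depth these are no measure of a difference in binding.

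The peak at −log10 q of 38.9 that counts for Olfr557 lies 8311 bp away over the promoter shared by Trim68 and Gm45527 in the annotation. Trim68 encodes a ubiquitin ligase of the TRIM family. In the 2CLC list this peak had a −log10 q of 6.07, and its fold enrichment was 16.4 in the ESC and 4.20 in the 2CLC list. Peaks at the promoters of Trim21 and Sprn likewise counted for Olfr550 and Olfr522. The Sprn peak had a −log10 q of 10.3 and 2.39.

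Receptors with the most peaks were not those with the strongest. Olfr544, a class I receptor for dicarboxylic acids that is also expressed outside the nose, had 3 ESC peaks, the highest with a −log10 q of 2.59. Its neighbours Olfr543 and Olfr545 had 2 ESC peaks each, and Olfr545 also had 2 peaks in the 2CLC list, with a −log10 q of 3.25 at most. The ESC peaks of both neighbours are among the 3 of Olfr544. With 2 ESC peaks followed Olfr585, Olfr592, Olfr522, Olfr643, Olfr539, Olfr510 and, with the lowest −log10 q of these (2.09), Olfr649, and with 2 peaks in the 2CLC list Olfr585, Olfr592, Olfr593, Olfr643, Olfr596 and Olfr521. Olfr592 and Olfr593 share their 2 peaks of the 2CLC list. Olfr643 has an annotated gene body that runs across several other receptors, and one of its regions is the same as that counted for Olfr640 and Olfr641.

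Most of the peaks near receptors lay outside the receptor gene bodies. Of the 42 ESC peaks 12 overlapped a receptor gene body, and 6 of the 36 in the 2CLC list did. By the annotation at the summit, 23 and 22 were intergenic, 15 and 10 lay in a promoter (2.5 kb before to 0.5 kb after a transcript start of any gene), 3 and 2 in an exon and 1 and 2 in an intron. Promoters thus held 35.7% and 27.8% of these summits, against 38.4% and 40.7% for the other peaks of the chromosome. Of the promoter summits, 10 and 7 lay in the promoter of an Olfr gene. Receptors were also grouped by their distance to another kind of coding gene. Of the 20 receptors with the start of another coding gene within 20 kb, 8 had an ESC peak (40%, 21.9 to 61.3) and 5 a 2CLC one (25%, 11.2 to 46.9). Of the 184 more than 50 kb away, 27 (14.7%, 10.3 to 20.5) and 26 (14.1%, 9.83 to 19.9) did. The intervals of the ESC list do not overlap and those of the 2CLC list do.

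The peaks near receptors differed in sequence from the other peaks of the chromosome. Within 100 bp of the summit the median GC content was 61.9% in the ESC and 62.7% in the 2CLC list, against 55.7% for the other peaks in both lists. The median number of CpGs was 9.5 and 10, against 5 and 6. The summit had at least 10 genomic copies at 18 of 42 ESC peaks (42.9%) and 19 of 36 peaks of the 2CLC list (52.8%), against 7.72% and 16.01% of the others. More than 50% of the window was soft-masked for 30 (71.4%) and 26 (72.2%), against 16.1% and 26.9%. Over whole regions near receptors, the 20 with single-copy summits alone had a median of 51.9% GC and 1.26 CpGs per 100 bp. The 23 with a summit of at least 10 copies had 55.3% and 3.70, so the high values do not hold for all regions near receptors. Peak strength was close, with a median fold enrichment of 4.62 and 4.47 near receptors and 4.39 and 4.09 elsewhere.

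The repeated sequences belonged in large part to one family. Among the 52 regions, 15 were joined by chains of shared exact 31-mers, on either strand, and they came from 4 of the 8 clusters. Each shared a 31-mer directly with 5 to 14 of the others. The regions of the strongest peaks near Olfr478, Olfr470, Olfr585, Olfr294, Olfr564, Olfr691 and Olfr46 were among them. Of the 15 regions 14 were common to both lists and 1 was ESC-specific, and 12 reached a −log10 q of at least 5. The 37 other regions were common in 11 cases, ESC-specific in 16 and 2CLC-specific in 10, and 11 reached that strength. The 20 regions with single-copy summits alone were common in 5 cases.

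The 16-bp stretch taggaaattagtctga, chosen as the exact 16-mer found in most of the 52 regions on either strand, occurred in 14 of them and in 139 of the 6629 other regions of the chromosome (2.10%). All 14 regions were common to the lists, and their highest −log10 q ran from 3.71 to 67.1 with a median of 15.5. The 38 regions without it ran from 1.45 to 91.9 with a median of 2.78, and the highest of these is the Olfr631 region, which shares at most 21 bp with any of the next 7 in strength. Regions held 1 to 6 matches, and on the chromosome successive matches under 1 kb apart were spaced by a median of 212 bp (quartiles 212 and 214 bp), a tandem unit of about the width of the windows printed above. Tandem units of this kind are known at the 5′ ends of young mouse LINE-1 elements, but no repeat annotation was used here and the units were not assigned to an element.

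Most copies of the stretch lay in a DPPA4 region. Of the 449 exact matches on chromosome 7, 38 lay within 10 kb of a receptor and 37 of these were inside a region, the exception being 1 match near Olfr479. Since the stretch was chosen from those regions, the 411 matches elsewhere were counted apart, and 357 of them (86.9%) lay inside a region. Matches of one tandem array are not independent, so loci were counted as well, with closely spaced matches joined. The 38 matches form 15 loci and the 411 form 183. Those inside regions lie in 14 and 139 regions. Among the receptors, 17 had a match within 10 kb and 16 of these had a peak in at least 1 list, a count that the choice of the stretch largely fixes. The authors placed reads that fit several copies equally well at 1 of them, so a peak at such a copy can hold reads from others, and the part of this in the counts was not tested.

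**Figure D5:**
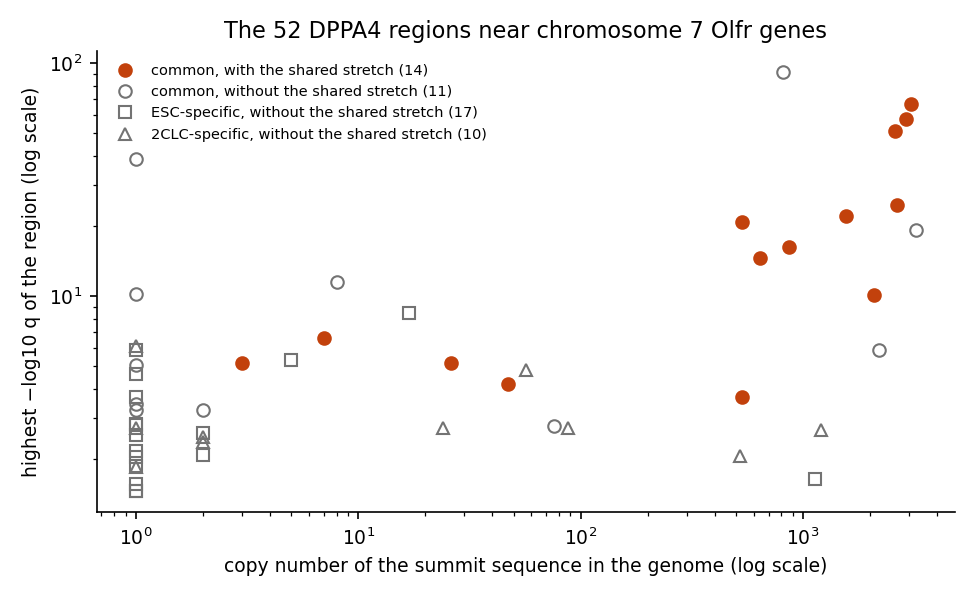
The 52 DPPA4 regions near receptors by the highest copy number of their summits (horizontal, log axis) and highest −log10 q (vertical, log axis), with filled points for regions that hold the shared 16-bp stretch and shapes for common (circle), ESC-specific (square) and 2CLC-specific (triangle) regions. The 14 filled points are all common regions and reach a −log10 q of 67.1, and the highest open circle is the Olfr631 region at 91.9.

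The annotated promoters of the receptors were poor in CpG. Whether their annotated starts are the true transcription starts was not checked. RefSeq promoters of GRCm38.p6, from 250 bp before to 50 bp after the start, matched 208 of the 244 receptors and 1443 of the 1779 other genes. For a gene with several such promoters, the highest CpG count and the highest GC content among them were taken. The receptors had a median of 1 CpG there (quartiles 0 and 2, at most 6) and 37.0% GC, and the other genes 12 CpGs (quartiles 3 and 23) and 56.3% GC. With promoters of at most 4 CpGs in both sets, a limit chosen with the values known, 36 and 32 of 203 receptors had a peak within 10 kb (17.7%, 13.1 to 23.6, and 15.8%, 11.4 to 21.4). Of the 461 other genes in this range 215 and 213 had one (46.6%, 42.1 to 51.2, and 46.2%, 41.7 to 50.8), and these intervals do not overlap those of the receptors. Of the 982 other genes with more CpGs 98.2% and 94.5% did. The core motif of the Ebf factors of olfactory neurons, TCCCNNGGGA, which reads the same on both strands, occurred in 1 of the 208 receptor promoters, that of Olfr698, and in 21 of the 1443 others (1.46%).

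Other chemoreceptor genes also had shares well below the 80.8% and 78.6% of the other coding genes of chromosome 7. Of the 891 coding Olfr genes on other chromosomes 145 (16.3%, 14.0 to 18.8) and 148 (16.6%, 14.3 to 19.2) had a peak within 10 kb. Of the 103 Vmn1r genes on chromosome 7, which are vomeronasal receptors, 17 and 25 did (16.5%, 10.6 to 24.9, and 24.3%, 17.0 to 33.4). Of the 51 Vmn2r genes, also vomeronasal receptors, 11 and 13 did (21.6%, 12.5 to 34.6, and 25.5%, 15.5 to 38.9). The intervals of all these overlap those of the chromosome 7 receptors in the same list, which does not show that the shares are equal. In the 2CLC list the Vmn1r windows held 14.9 peaks per Mb and the chromosome 7 Olfr windows 8.35. The 49 Olfr genes of chromosome 7 that are not annotated as coding had 14 and 15 genes with a peak (28.6%, 17.8 to 42.4, and 30.6%, 19.5 to 44.5).

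The 30 other coding genes inside the receptor clusters had peaks at 13 genes in the ESC and 15 in the 2CLC list (43.3%, 27.4 to 60.8, and 50%, 33.2 to 66.8). These 30 include the coding Usp17l genes, each with a 2CLC peak and only Usp17lb with an ESC peak, and the 5 beta-globin genes, which had none. The 30 also include 12 Trim genes, which encode tripartite-motif proteins with roles in innate immunity, and 9 and 8 of these 12 had a peak. Trim6 had 2 peaks in the ESC list and 3 in the other and Trim30d likewise 2 and 3, while Trim34b and Trim30c had none. Within the class I array an ESC peak lay near 17.1% of the 129 receptors (11.5 to 24.5) and near 75% of the 12 Trim genes (46.8 to 91.1).

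The genes that serve these receptors in the sensory neuron were counted in the same way. Of 13 genes for odour signalling and receptor transport, 10 had an ESC peak (76.9%, 49.7 to 91.8) and 11 a 2CLC peak (84.6%, 57.8 to 95.7), and these intervals include the 80.8% and 78.6% of the other coding genes of chromosome 7. Adcy3, the cyclase of the odour response, had 15 and 13 peaks, and Cngb1, a subunit of the cyclic nucleotide-gated channel, had 16 and 12. Its partner subunit Cnga2 had none in either list, as did Rtp2, which helps receptors to the cell surface. On chromosome 7, Omp, the marker of mature olfactory neurons, had 3 and 2 peaks and Cnga4, next to the class I array, 1 and 1. Of 15 genes for receptor choice and neuron identity, 15 had an ESC and 14 a 2CLC peak, and their intervals (79.6 to 100% and 70.2 to 98.8%) include those shares too. Lhx2, whose product binds receptor enhancers, had 6 and 2, Ebf1, its partner factor, 15 and 1, and Emx2, a further regulator, 5 and 0. Kdm1a with 7 and 8, Atf5 with 5 and 6 and Cbx5 with 6 and 9 had more in the 2CLC list. Lbr had 3 in each, and the remaining genes of this group had more in the ESC list, the longer list. These counts are not corrected for gene length.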

How the data were processed

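DPPA4 CUT&RUN peaks were analysed for GFP-negative and GFP-positive cells. Per the methods, the authors trimmed reads, aligned them to mm10 with STAR 2.7.10, keeping for each read its best location, or a random one of several equally good, removed duplicates with Picard 2.26.0 and reads in blacklisted high-signal regions, and called peaks with MACS2 2.2.6. Whether IgG served as control in peak calling is not given in the sources used here, and the IgG libraries were not analysed here. Each deposited list gives, per peak, a fold enrichment (a ratio), a −log10 q-value and the summit offset in bp. The lowest deposited −log10 q was 1.30, a q-value of 0.05.

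Genes came from GENCODE vM21, sequence and promoters from RefSeq GRCm38.p6. Peaks were counted within 10 kb of each gene body with Python 3.11.15, pandas 2.3.3 and numpy 2.4.6, and intervals were computed with statsmodels 0.14.6. Regions are overlapping peaks (at least 1 bp) of the lists. The copy number is the median genomic count, over both strands, of all 31-mers that lie within 100 bp of the summit, and its script was tested on simulated data. Groups came from the sample titles. The genes named are all receptors within 200 kb of a Usp17l gene, the 8 per list with the most peaks (ties in −log10 q kept, and Olfr649 added after the values were seen), the 8 strongest peaks per list, those with a peak over the 5′ end, the ends of each cluster, and lists of olfactory signalling, Trim, beta-globin, Zscan4 and Usp17l genes. Members and lists were chosen with earlier results of these data known, and the Obox genes were added after the values were seen. Alternatives changed the window, the peak threshold, the list size, the copy number and the distance that counts as near.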

Additional observations from a re-analysis of the deposited data

How the results depend on the processing

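No paired analysis was possible because each peak list pools its 2 libraries and no result comes from a test, and for the same reason no replicate could be left out. Of 49 alternatives, 42 gave a value within the interval of the one reported and 7 moved beyond it. All 7 concern the receptor share minus the share of the other coding genes, in percentage points. With a window of 50 kb it was -30.3 in the ESC and -30.2 in the 2CLC list. With the 10000 strongest peaks of each list it was -42.3 and -39.0. With single-copy summits alone it was -68.9 and -68.0, and with a −log10 q of at least 5 it was -54.5 in the 2CLC list. The sign was negative in each. The near minus far difference of the 2CLC list ran from -7.27 to 8.50 and changed sign between settings. Limiting Usp17l genes to coding ones (-8.77 and 2.2) and receptors to the largest cluster (-9.73 and 2.51) were added after the data were seen. The depth of each library is unknown from these files, so an absent peak is one not called at this depth.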
